A study of Homo sapiens with 6 samples.

Results

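Condensins are the protein machines that compact chromosomes, and the 8 genes described here encode their subunits. The genes were taken by name: the *SMC2* and *SMC4* ATPases, which both complexes share, the condensin I subunits *NCAPH*, *NCAPD2* and *NCAPG*, and the condensin II subunits *NCAPH2*, *NCAPD3* and *NCAPG2*. All 8 were found among the 58336 genes of the count table, and all 8 were abundant enough to be tested, among 15844 genes tested in all. RNA was sequenced from A2780 cells, a human ovarian cancer line, after treatment with 6 µM TH-588 (TH588 below), an inhibitor of the nucleotide pool enzyme MTH1, or with 0.1% DMSO as the diluent. Both treatments lasted 48 h, and each was repeated in 3 biological replicates (A, B and C) of this 1 line.

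Each condensin is a ring. SMC2 and SMC4 are long coiled coils joined at a hinge, whose ATPase heads are bridged by a kleisin subunit (NCAPH or NCAPH2), and the kleisin carries a pair of HEAT repeat proteins that contact DNA. Condensin II resides in the nucleus throughout the cell cycle and starts chromosome condensation in prophase, while condensin I reaches the chromosomes after the nuclear envelope breaks down. Cells need both complexes to build and separate sister chromatids in mitosis, and several of the genes are transcribed most in late cell cycle phases.

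Total counts ranged from 28537837 in TH588 replicate A to 99074175 in TH588 replicate B, and *SNORD3A*, a small nucleolar RNA, accounted for 21.94% of TH588 replicate A and 7.68% to 12.95% of every other library. Even in that shallowest library the subunits had between 573 and 4139 counts each. Levels are given as CPM, that is, counts relative to the library size after TMM normalization. Of 10 markers of ovarian epithelium, 8 fell below the filter on low counts, among them *PAX8* with 2 counts and *KRT7* with 1 count in all 6 libraries together. *EPCAM* was tested and measured 0.644 ± 0.212 CPM (SD, n = 3) with DMSO and 4.74 ± 0.350 CPM (SD, n = 3) with TH588, and *KRT18* measured 3.56 ± 0.373 and 6.54 ± 0.435 CPM (SD, n = 3 each). The collagen gene *COL3A1*, a mesenchymal marker, stood at 1733 ± 165 and 2279 ± 378 CPM (SD, n = 3 each) and was called higher (edgeR adjusted p = 0.0154), although the groups overlapped. The other mesenchymal markers were not called, *COL1A1* at 3.97 ± 0.790 and 3.84 ± 1.19 CPM and *DCN* at 6.99 ± 0.0303 and 6.45 ± 0.399 CPM (SD, n = 3 each). The leukocyte and endothelial markers *PTPRC*, *CD3E*, *CD68*, *PECAM1* and *VWF* had 0 to 16 counts over all libraries.

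All 8 condensin subunit transcripts were lower after TH588, by edgeR's quasi-likelihood test with Benjamini-Hochberg adjustment and a threshold of 0.05 (the edgeR adjusted p below, beside the standard error, SE). In the same test 25.3% of all genes were lower and 24.2% were higher. The subunits and the lists below were chosen with earlier results of these data known, so such counts may partly follow from that choice. The median log2 fold change of the 8 subunits was -1.23, against 0.02 for all genes tested, and 6 of the 8 fell by more than 2-fold. Summed over the subunits, the transcripts took 1296 ± 18.2 CPM (SD, n = 3) with DMSO and 615.9 ± 79.99 CPM (SD, n = 3) with TH588. In each of the 8 genes the highest TH588 library lay below the lowest DMSO library, an order that 29.0% of all genes tested also showed. In bulk RNA, fewer cells that express a gene and less of its RNA per cell cannot be told apart.

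The ATPase subunits fell by similar factors. *SMC2* (ENSG00000136824, on chromosome 9 of GRCh38 from 104094260 to 104141417) measured 94.9, 101.6 and 105.3 CPM with DMSO and 34.5, 43.5 and 47.6 CPM with TH588, in the order of replicates A, B and C that is kept throughout. The groups lay far apart, with TH588 replicate A the lowest library. The log2 fold change of *SMC2* was -1.26 (SE 0.11, edgeR adjusted p = 2.02e-06), a level 2.39-fold lower. *SMC4* (ENSG00000113810, chromosome 3 from 160399274 to 160434962) was the more abundant partner, at 283.3, 310.7 and 300.9 CPM with DMSO and 105.7, 145.3 and 153.2 CPM with TH588. Its log2 fold change was -1.14 (SE 0.12, edgeR adjusted p = 9.79e-06). Without TH588 replicate A, the fall of *SMC4* was -0.99 and that of *SMC2* -1.13 on the log2 scale. Exons of *TRIM59* and *IFT80*, on the opposite strand, cover 25.6% of the exon bases of *SMC4*, while those of *SMC2* are shared with no other gene of the table.

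Among the condensin I subunits, the kleisin and the HEAT repeat subunit *NCAPG* showed the deepest falls of the family. *NCAPH* (ENSG00000121152, chromosome 2 from 96335787 to 96373845), the kleisin that closes the condensin I ring, measured 91.7, 92.8 and 89.6 CPM in the DMSO libraries and 27.2, 31.8 and 31.3 CPM in the TH588 libraries. Replicates of *NCAPH* scattered little, with a coefficient of variation of 1.78% with DMSO and 8.31% with TH588. Its log2 fold change was -1.60 (SE 0.08, edgeR adjusted p = 5.76e-08), which left 33.0% of the DMSO level, and only 1.04% of all genes tested had a larger fall. *NCAPG* (ENSG00000109805, chromosome 4 from 17810902 to 17844862) measured 88.8, 97.6 and 101.9 CPM with DMSO and 28.2, 33.4 and 35.2 CPM with TH588. The log2 fold change of *NCAPG* was -1.57 (SE 0.10, edgeR adjusted p = 1.84e-07), close to that of *NCAPH*. Exons of *LCORL*, read from the opposite strand, cover 33.1% of the exon bases of *NCAPG*, so its count is less certain than that of *NCAPH*, which shares none.

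The other HEAT repeat subunit of condensin I moved least. *NCAPD2* (ENSG00000010292, chromosome 12 from 6493356 to 6531955), measured 300.6, 306.8 and 294.0 CPM with DMSO and 154.6, 217.7 and 199.9 CPM with TH588. The TH588 libraries of *NCAPD2* were spread over a wide range, with replicate A well below the other two, yet all 3 lay under the DMSO libraries. Its log2 fold change was -0.65 (SE 0.11, edgeR adjusted p = 0.000381), a level 1.57-fold lower, and 13.2% of all genes tested had a larger fall. Without TH588 replicate A it was -0.51. Even so, *NCAPD2* lost more CPM (109.7) than *NCAPH* (61.3), since its level with DMSO was higher.

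Condensin II subunits also fell, with log2 fold changes from -1.43 to -0.89. *NCAPG2* (ENSG00000146918, chromosome 7 from 158631311 to 158704829), the counterpart of *NCAPG*, measured 164.4, 164.6 and 171.9 CPM with DMSO and 57.4, 65.9 and 63.0 CPM with TH588. The groups of *NCAPG2* were tight and 98.5 CPM apart at their nearest libraries. Its log2 fold change was -1.43 (SE 0.08, edgeR adjusted p = 8.92e-08). *NCAPH2* (ENSG00000025770, chromosome 22 from 50508216 to 50523472), the condensin II kleisin, was the least abundant transcript by CPM, at 66.4, 56.4 and 58.6 CPM with DMSO and 21.4, 31.1 and 25.5 CPM with TH588. DMSO replicate A of *NCAPH2* stood above the other DMSO libraries and TH588 replicate A below the other TH588 libraries. The log2 fold change was -1.21 (SE 0.12, edgeR adjusted p = 7.29e-06). *NCAPD3* (ENSG00000151503, chromosome 11 from 134150119 to 134225454), the counterpart of *NCAPD2*, measured 185.2, 176.5 and 183.4 CPM with DMSO and 95.4, 104.4 and 94.4 CPM with TH588, and was the only subunit whose lowest TH588 library was not replicate A. Its log2 fold change was -0.89 (SE 0.08, edgeR adjusted p = 1.99e-06), which left 54.0% of the DMSO level.

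**Figure D1:**
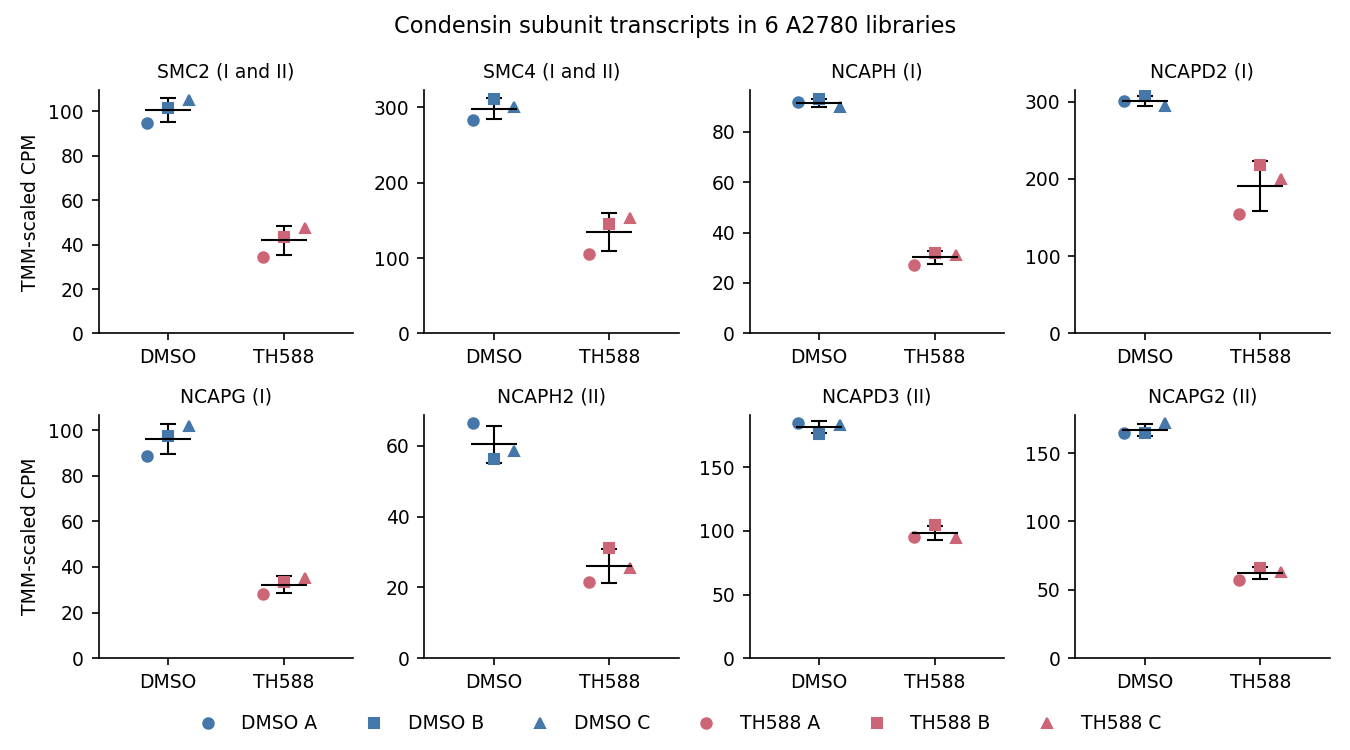
TMM-scaled CPM (vertical axes, each from 0) of the 8 condensin subunits in 3 DMSO libraries (blue) and 3 TH588 libraries (red), with the complex in brackets. Points are libraries, marked by replicate letter, and bars give the mean and SD. The groups do not overlap in any panel, and TH588 replicate A is the lowest library in 7 of the 8.

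Levels of different subunits were compared per kb of exon, because the transcripts differ in length. How reads on exon bases shared with another gene were counted is not known. Levels per kb, and the levels of ratios below, are therefore less certain for *NCAPG* (33.1% of exon bases shared) and *SMC4* (25.6%). To a smaller degree this holds for *NCAPD3* (8.89%) and *NCAPD2* (7.49%). With DMSO, *NCAPD2* was highest at 46.3 ± 0.981 CPM per kb, followed by *SMC4* at 35.3 ± 1.64, *NCAPH* at 27.9 ± 0.496 and *NCAPG2* at 23.9 ± 0.608 CPM per kb (SD, n = 3 each), each apart from the next in every library. *NCAPD3*, *NCAPG* and *NCAPH2* followed at 19.9 ± 0.502, 19.5 ± 1.36 and 19.1 ± 1.67 CPM per kb (SD, n = 3 each), where neighbours overlapped. *SMC2* was lowest, at 15.6 ± 0.815 CPM per kb (SD, n = 3). After TH588, *NCAPD2* and *SMC4* still ranked highest, at 29.4 ± 5.01 and 15.9 ± 3.01 CPM per kb (SD, n = 3 each). *NCAPD3* came next at 10.8 ± 0.608 CPM per kb, ahead of *NCAPH* at 9.19 ± 0.763 CPM per kb (SD, n = 3 each). From *NCAPH* down through *NCAPG2*, *NCAPH2* and *NCAPG* to *SMC2*, at 6.48 ± 1.04 CPM per kb (SD, n = 3), each gene overlapped the next.

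To compare the complexes, each condensin I subunit was set against its condensin II counterpart within every library, as the log2 ratio of CPM per kb. The ratio of the kleisins *NCAPH* to *NCAPH2* was 0.41, 0.67 and 0.56 with DMSO and 0.29, -0.02 and 0.24 with TH588. These groups did not overlap, and the ratio differed by -0.37 (SE 0.12), *NCAPH* having lost more. The exact two-sided permutation test gave p = 0.1, the smallest that 3 libraries against 3 allow, and p = 0.2 after adjustment over the 4 ratios computed, so the difference did not pass. The ratio of *NCAPD2* to *NCAPD3* was 1.19, 1.29 and 1.17 with DMSO and 1.19, 1.55 and 1.57 with TH588, a difference of 0.22 (SE 0.13, exact permutation p = 0.3, adjusted p = 0.3). TH588 replicate A lay within the DMSO range of this ratio, and without it the difference was 0.35. The ratio of *NCAPG* to *NCAPG2* was -0.38, -0.25 and -0.25 with DMSO and -0.52, -0.48 and -0.33 with TH588, and its groups overlapped (difference -0.15, SE 0.07, exact permutation p = 0.2, adjusted p = 0.27).

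The shared ATPases were compared in the same way. The log2 ratio of *SMC2* to *SMC4* was -1.19, -1.23 and -1.13 with DMSO and -1.23, -1.35 and -1.30 with TH588, a difference of -0.11 (SE 0.05, exact permutation p = 0.1, adjusted p = 0.2), and TH588 replicate A only just cleared the DMSO range. Over the specific subunits of each complex, the mean level was 31.2 ± 0.526 CPM per kb for condensin I and 21.0 ± 0.686 CPM per kb for condensin II with DMSO, and 15.1 ± 2.14 and 9.29 ± 0.886 CPM per kb with TH588 (SD, n = 3 each). The quotient of these means was 1.42, 1.57 and 1.48 in the DMSO libraries and 1.49, 1.63 and 1.73 in the TH588 libraries, so the groups overlapped. *NCAPD2* dominated the condensin I mean in both groups. By median log2 fold change the order was the other way, with -1.57 for the condensin I subunits and -1.21 for the condensin II subunits.

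**Figure D2:**
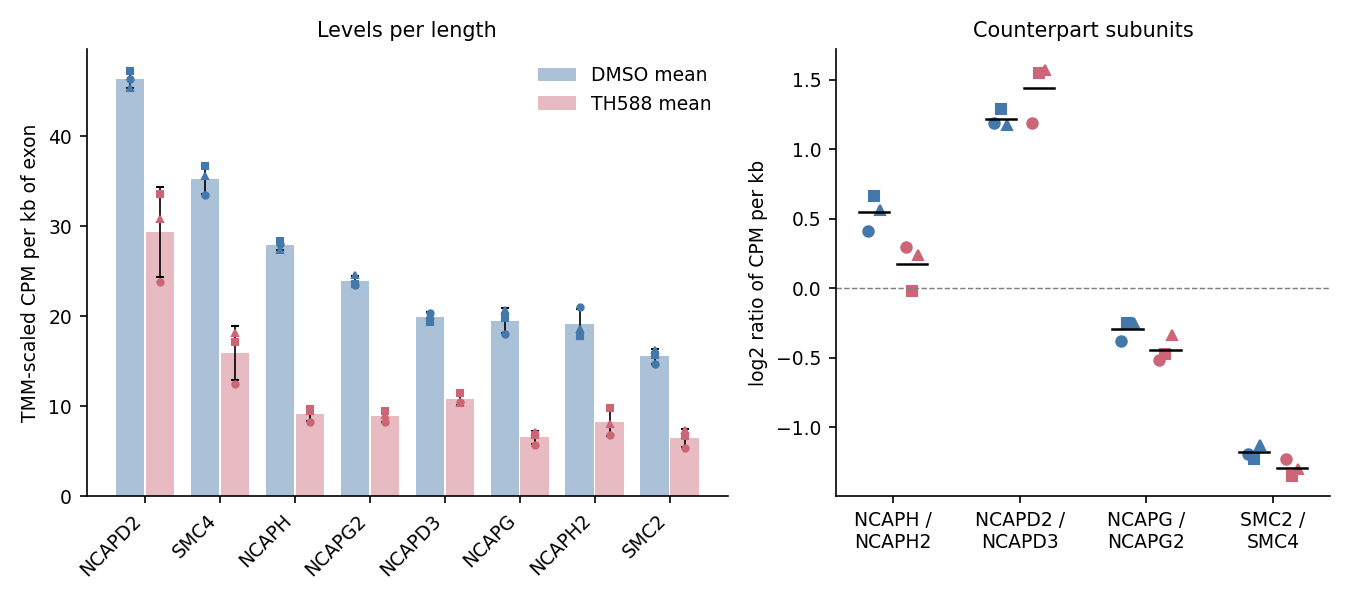
Left, TMM-scaled CPM per kb of exon for the 8 subunits, as bars for the mean, error bars for the SD and points for single libraries (DMSO blue, TH588 red; circle, square and triangle for replicates A, B and C). Right, log2 ratio of CPM per kb of counterpart subunits in each library, with black lines at the means: the groups separate for *NCAPH* to *NCAPH2* and for *SMC2* to *SMC4* and overlap for the other two.

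Promoters of the subunits were searched because their transcripts moved together. The search covered 3 motifs known from cell cycle genes, on both strands: the cell cycle genes homology region (CHR, TTTGAA), which MuvB complexes bind, the CCAAT box (CCAAT), which NF-Y binds, and E2F sites (TTTCCCGC, TTTGGCGC, TTTCGCGC or TTTGCCGC). RefSeq promoters of GRCh38.p14, from 250 bases before to 50 after a transcription start, were matched for 7 of the 8 genes and gave 10 promoters, since *SMC2*, *SMC4* and *NCAPD3* have a pair of starts each. *NCAPH2* was not matched. The CHR was found in 6 of the 10 promoters, against 15.2% of all 35116 promoters of this length. These promoters belong to 6 of the 7 genes, and no share per gene was computed over all genes. The stretches around the CHR are given here because 6 of the 7 matched genes share the motif. They run 5′ to 3′ on the strand of the gene, with up to 12 bases on either side. The CHR is in capitals (TTCAAA where it lies on the other strand).
SMC2, chr9:104094294-104094323, plus strand: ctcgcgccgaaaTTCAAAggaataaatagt
SMC4, chr3:160399563-160399592, plus strand: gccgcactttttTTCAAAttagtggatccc
NCAPD2, chr12:6493945-6493974, plus strand: cagccgttgagaTTTGAActcggtatttgt
NCAPG, chr4:17810932-17810961, plus strand: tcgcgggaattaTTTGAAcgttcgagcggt
NCAPD3, chr11:134223953-134223982, minus strand: gcgggagcgagcTTTGAAagttgagcacgg
NCAPG2, chr7:158704755-158704781, minus strand: ccggcgggtgcgTTTGAAtctggtccg

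The CHR began 3 bases before the start in *SMC2* and in *NCAPD3*, 35 before it in *NCAPG*, 75 before it in *SMC4* and 145 before it in *NCAPD2*, and at base 36 after the start in *NCAPG2*. *NCAPH*, the gene with the deepest fall, had no CHR in this window and a CCAAT box 112 bases before its start. The CCAAT box was found in 3 of the 10 promoters, against 34.6% of all promoters: *NCAPD2* held 4 and the second start of *NCAPD3* held 2. An E2F word occurred only at that start of *NCAPD3*, while 3.32% of all promoters held one. The same start also holds the CHR of *NCAPD3* and lies 1487 bases from the gene's start in the count table. For the other RefSeq starts with a CHR this distance was 746 bases in *NCAPD2*, 376 in *SMC4*, 77 in *NCAPG*, 49 in *SMC2* and 25 in *NCAPG2*. These matches describe the letters in the windows, and no test of them was made.

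**Figure D3:**
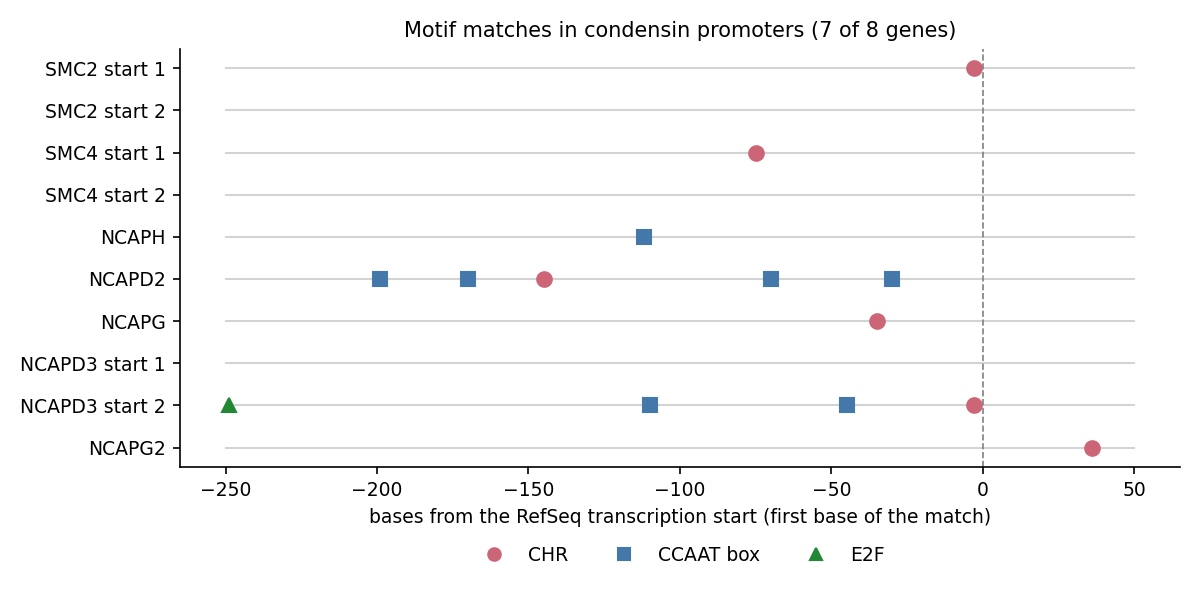
Position of motif matches in 10 RefSeq promoters of 7 condensin genes, in bases from the transcription start at 0 (each grey line runs from 250 bases before to 50 after it). Circles mark the CHR, squares the CCAAT box and the triangle an E2F word. CHR matches lie in 6 of the 10 promoters, and *NCAPD2* holds 4 CCAAT boxes.

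Of the genes that overlap the subunit genes or start beside them on the other strand, *DCAF16* and *JAM3* were called lower. The other neighbours tested, all named below, were not called. The share called lower was close to the 25.3% of all genes tested. Distances between starts use the gene starts in the count table, not the RefSeq starts. *MRPL51*, which encodes a mitochondrial ribosomal protein and starts 485 bases from *NCAPD2* on the other strand, had a log2 fold change of -0.10 (edgeR adjusted p = 0.333). For *IFT80*, an intraflagellar transport gene across from the start of *SMC4*, it was 0.15 (adjusted p = 0.385), and for *VPS26B*, across from that of *NCAPD3*, it was 0.07 (edgeR adjusted p = 0.533). *DCAF16*, which starts 144 bases from *NCAPG* on the other strand, fell from 20.7 ± 0.872 to 15.5 ± 0.910 CPM (SD, n = 3 each; log2 fold change -0.41, edgeR adjusted p = 0.00363). *LMF2*, across from *NCAPH2*, had a log2 fold change of -0.31 (edgeR adjusted p = 0.0640). At the far ends of the subunit genes, *JAM3* beside *NCAPD3* fell (log2 fold change -0.49, edgeR adjusted p = 0.000158), while *LCORL* beside *NCAPG* measured -0.28 (adjusted p = 0.0880) and *TRIM59* beside *SMC4* -0.84 (SE 0.64, edgeR adjusted p = 0.308). *TRIM59* had between 0 and 25 counts in a library, against 2830 to 28180 for *SMC4*.

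*SMC4* is also the host of the microRNA genes *MIR15B* and *MIR16-2*, which lie within its span on the same strand. Their main mature products share a seed, bases 2 to 8, shown in capitals in their RefSeq sequences.
hsa-miR-15b-5p: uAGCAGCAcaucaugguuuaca
hsa-miR-16-5p: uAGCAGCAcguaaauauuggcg

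Reads on the *MIR15B* hairpin were few, with 9, 14 and 8 counts in the DMSO libraries and 0, 4 and 2 in the TH588 libraries, and *MIR16-2* had 2, 1 and 1 against 1, 0 and 0. Both fell below the filter on low counts and were not tested, and libraries of this kind do not measure mature microRNAs. *SCARNA10*, a Cajal body RNA inside *NCAPD2*, had 1 to 6 counts in each library.

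Condensin depends on mitotic kinases and on partners that place it on chromosomes. Of 16 such genes listed, 11 were lower after TH588, 0 were higher, and 5 did not pass the test. Of all genes tested, 25.3% were lower and 24.2% higher. The median log2 fold change of the list was -0.58, and *CDK1*, *AURKB* and *TTK* also belong to the G2/M list below. *CDK1*, the kinase that switches both condensins on in mitosis, fell from 58.75 ± 4.97 to 15.98 ± 2.71 CPM (SD, n = 3 each; log2 fold change -1.86, edgeR adjusted p = 2.46e-07), a larger fall than that fitted for any subunit. Its partner *CCNB1* (cyclin B1) fell less, with a log2 fold change of -0.62. *AURKB*, which promotes loading of condensin I, fell by 1.42 on the log2 scale. *TTK*, which phosphorylates NCAPH2, and *PLK1*, which acts on condensin II, had log2 fold changes of -1.18 and -1.02. *MCPH1*, the microcephaly gene whose product holds condensin II in check before mitosis, fell by 0.63 on the log2 scale. *PARP1*, whose product works with condensin I at DNA strand breaks, fell from 1147 ± 63.0 to 574.0 ± 58.3 CPM (SD, n = 3 each; log2 fold change -0.999). The smaller called falls were those of *PPP2CA* (-0.54), *KMT5A* (-0.47) and *CSNK2A1* (-0.45). *XRCC1*, *PHF8*, *PPP2R1A*, *AKAP8* and *RB1* did not pass, with log2 fold changes between -0.23 for *XRCC1* and 0.07 for *RB1* and adjusted p-values between 0.0837 and 0.536 from edgeR's test.

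Transcripts of proteins that sit beside condensin on mitotic chromosomes were lower for 7 of 10 genes listed, beside 25.3% of all genes tested. The median log2 fold change was -0.73, and *TOP2A*, *MKI67*, *HMGB2* and *CBX5* also belong to the G2/M list below. *MKI67* (Ki-67), the surfactant of the chromosome surface, had a log2 fold change of -1.59, topoisomerase II alpha (*TOP2A*) one of -1.49, the chromokinesin *KIF4A* one of -1.43 and *HMGB1* one of -1.10. *TOP2B*, the isoform that is not tied to proliferation, measured 477.5 ± 12.5 and 445.1 ± 28.15 CPM (SD, n = 3 each) and did not pass (log2 fold change -0.10, edgeR adjusted p = 0.311).

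In the related cohesin complex and its regulators, 12 of 17 genes were lower and 3 higher, beside 25.3% and 24.2% of all genes tested, the median log2 fold change being -0.50. The ATPases *SMC1A* and *SMC3* fell by 1.23 and 0.88 on the log2 scale, beside -1.26 for *SMC2* and -1.14 for *SMC4*. The cohesin kleisin *RAD21* had a log2 fold change of -0.36, beside -1.60 for *NCAPH* and -1.21 for *NCAPH2*, and the differences between these genes were not tested. The largest cohesin falls were those of *ESCO2* (-1.64), *CDCA5* (-1.59) and *ESPL1* (-1.31), which act on cohesin in S phase and at anaphase, and then *SMC1A*. *MAU2*, *HDAC8* and *ESCO1* rose, with log2 fold changes of 0.48, 0.35 and 0.34. In the SMC5/6 complex, which works in DNA repair, 6 of 10 genes including *SMCHD1* were lower and 1 was higher, the median log2 fold change being -0.37. The leading falls were *NSMCE4A*, its kleisin (-1.46), *SLF1* (-0.98), *SMC6* (-0.97) and *SMCHD1* (-0.77), and *NSMCE2* rose by 0.58.

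Transcripts of the listed S phase and G2/M genes moved with the subunits. All 43 S phase genes were lower, beside 25.3% of all genes tested, and their median log2 fold change was -1.30. All 52 G2/M genes were lower too, after *SMC4* and *NCAPD2* had been taken off that list, with a median of -1.02. The subunit median of -1.23 thus lay between them. The largest falls were *E2F8* (-2.55), *CLSPN* (-2.21), *EXO1* (-2.13) and *CCNE2* (-2.06) in S phase, and *CDK1*, *HJURP* (-1.63), *MKI67* and *CDCA2* (-1.51) in G2/M. No S phase gene fell less than *NCAPD2*, whose log2 fold change was -0.65. The part that a change in the share of cycling cells had in the condensin values was not tested.

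**Figure D4:**
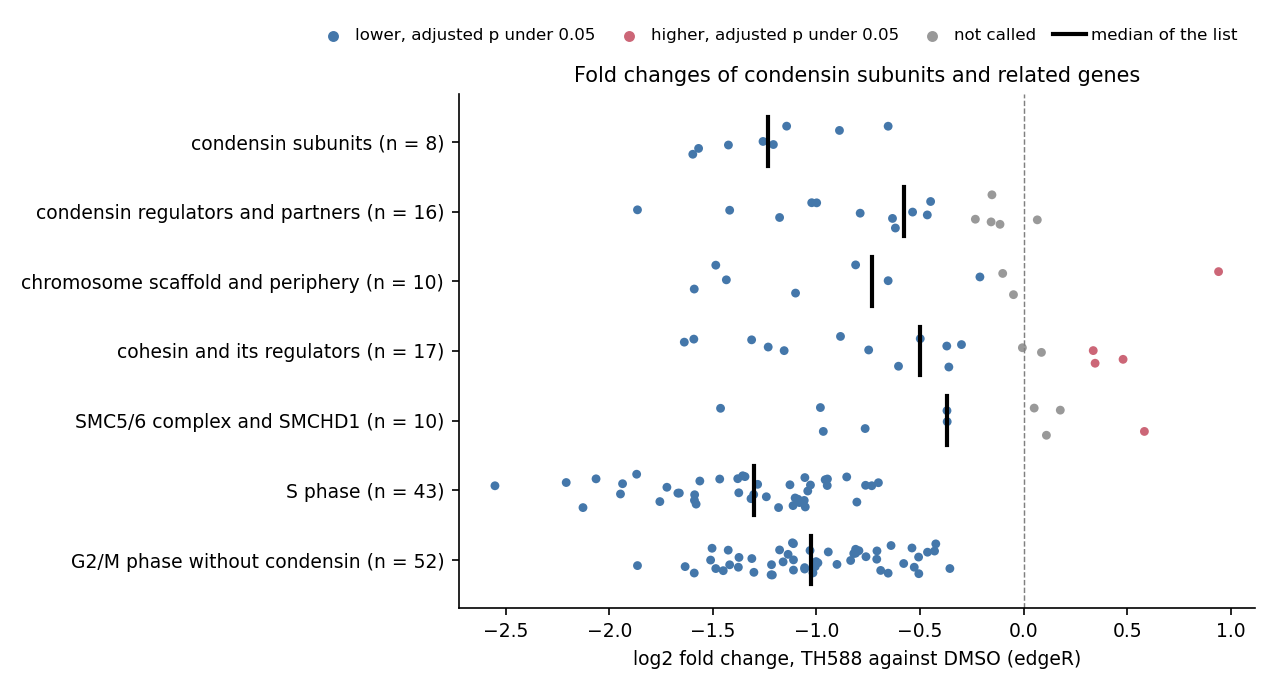
Log2 fold change after TH588 (horizontal axis) of single genes in 7 lists, with colours for genes called lower, called higher or not called, and black lines at each list's median. The condensin median of -1.23 lies between those of the S phase list (-1.30) and the G2/M list (-1.02), and no condensin subunit reaches 0.

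The genes outside the family whose levels over the 6 libraries were most like the mean of the 8 standardized subunits were *MCM10*, *DMC1*, *FAM83D*, *COQ3* and *CDCA2*, with Pearson's r from 0.9997 to 0.9993, over the 9754 genes whose mean log2 CPM was 2 or more. *MCM10*, a replication initiation factor, measured 110.1, 105.5 and 107.8 CPM with DMSO and 21.7, 31.8 and 30.1 CPM with TH588. *FAM83D*, a spindle protein, measured 76.7, 75.7 and 78.9 CPM with DMSO and 30.0, 37.6 and 35.7 CPM with TH588. Like most subunits, both were lowest in TH588 replicate A. The libraries form 2 groups, so such values follow mainly from the difference between treatments, and 339 of the 9754 genes had an r above 0.99.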

How the data were processed

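RNA from 3 DMSO and 3 TH588 replicates of A2780 cells was made into TruSeq libraries. The authors aligned reads to GRCh38 with TopHat 2.0.14, counted them per gene with featureCounts 1.4.6 and deposited raw counts. How reads on overlapping genes or strands were counted is not given in the sources used here. Symbols were matched by Ensembl identifier for 57754 of 58336 genes. Matched genes overlapped their GENCODE 44 counterparts in 99.97% of cases.

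Counts were compared with edgeR 4.0.16 in R 4.3.3 (TMM, default filter on low counts, quasi-likelihood test, Benjamini-Hochberg adjustment over all 15844 genes, threshold 0.05). The SE was obtained as the absolute log2 fold change over √F. Ratios were tested with SciPy 1.17.1. Per-kb levels use the exon length in the table. The code of the fit was tried on simulated counts in which far fewer genes changed than in these data. That trial does not measure the error rates of the calls made here. Replicates differed beyond sampling noise (chi-square per degree of freedom 25.2 to 179.9). That value was taken on raw counts scaled by library total, without TMM, so it includes shifts such as that of *SNORD3A*. The p-values measure the spread between these cultures after TMM.

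The members and lists were chosen with earlier results of these data known. Beside all members, the genes named are up to 4 falls and 4 rises per list that passed the threshold without overlap of the groups, all listed regulators, neighbours overlapping a member or starting within 1000 bases, and the 5 most alike genes. Of the genes this rule names, 2 are not reported here. Alternatives are given in the closing section.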

Additional observations from a re-analysis of the deposited data

How the results depend on the processing

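All 8 subunits were called lower in each of the 15 alternatives: scaling by library size only or by DESeq2's size factors, the tests of limma-voom 3.58.1 and DESeq2 1.42.0, no filter, a minimum of 10 counts per library, removal of the 10 most abundant genes, an adjusted p under 0.01, the replicate block, and each library left out in turn. The largest adjusted p was 0.0136, for *NCAPD2* with library size only, which moved the median of all genes to 0.13. The median log2 fold change of the subunits ranged from -1.322 to -1.107 over the fits without one library, the latter without TH588 replicate A. That of the condensin II subunits ranged from -1.359 without TH588 replicate B to -1.083 without TH588 replicate A, and was -1.095 with library size only. Counts of the other lists stayed within 1.5 times, and no value reversed. The number of G2/M genes called lower ranged from 50 to 52 over the alternatives, and that of cohesin genes from 9 to 12. All 43 S phase genes were lower in each. The *NCAPD2* to *NCAPD3* difference was 0.345 without TH588 replicate A. The causes were not tested. Replicate letters did not pair the libraries: same-letter deviations correlated at -0.07, -0.08 and 0.001, and 0 of 6 libraries correlated best with their own letter. With the replicate block the subunit median was -1.248, and 7195 genes were called against 7852. With 3 libraries a group, no single ratio could reach p under 0.1.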
